A study of Mus musculus with 12 samples.

Results

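The genes described here are named as genes of cytosolic ribosomal proteins, and most encode one. They are the 89 of 18996 genes in the count table whose symbol starts with Rpl or Rps and then a digit or a lower-case letter, with the Rps6k kinases left out. The rule reads names and no measured value. Of the 89, 31 are genes of the small (40S) subunit, 43 of the large (60S) subunit and 3 of the P stalk, together 77 subunit genes. A further 6 are paralogs of subunit genes, and the last 6 share only the name pattern. Among those 6, Rps19bp1 encodes a protein that binds a ribosomal protein and is not one itself. Rpl31-ps12, Rpl34-ps1, Rpl37rt and Rps27rt are copies of other members, and the last is Rpl32l. Of the 89, 4 are annotated as pseudogenes: Rpl31-ps12, Rpl34-ps1, Rpl37rt and Rpl32l.

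Polyadenylated RNA was sequenced from paraspinal soft tissue of unoperated and scar tissue of operated BALB/c mice aged 5 to 7 weeks. Both sexes were used in the study, and the sex of each mouse is not given in the sources used here. The No operation group was left unoperated and gave paraspinal soft tissue. The SHAM group gave scar tissue after an operation that, per the paper, took out paraspinal soft tissue and left the lamina in place. The Laminectomy group gave scar tissue after the laminae over the cord had been taken out. Each group held 4 mice, and operated tissue was taken on day 7. The labels name no transgene or drug for any group. The 3 groups share strain, while operated and unoperated samples are labelled as different tissues. The comparisons ask how ribosomal protein RNA differed between scar tissue and unoperated soft tissue, and whether taking out bone added to that difference.

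A ribosome is assembled from ribosomal RNA and one copy of most ribosomal proteins, so cells make these proteins in matched amounts. Their mRNAs are short and abundant, and most begin with a C followed by a run of C and T, the 5′ terminal oligopyrimidine (TOP) motif, through which mTOR signalling and the protein LARP1 set how strongly they are translated. Synthesis of ribosomes is known to rise in cells that grow or divide. Striated muscle is known for a ribosome of its own kind, in which RPL3L takes the place of RPL3 near the peptidyl transferase centre, and muscle in the same way uses elongation factor eEF1A2 in place of eEF1A1.

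Runs of C and T near the annotated start, where a TOP motif would lie, are shown for 3 members of differing behaviour and for Eef1a1, an elongation factor gene. With the annotated first base counted as 0, the run began at -1 in Rps6, 8 in Rps12, 2 in Rpl13a and -5 in Eef1a1, negative values lying before the start, so the runs are not shown to be the first bases of the mRNA. The windows are 30 bases of RefSeq sequence on build GRCm38.p6, with the run of C and T in capitals, from chr4:86857347-86857376 (minus strand), chr10:23787180-23787209 (minus), chr7:45128722-45128751 (minus) and chr9:78481708-78481737 (minus).
Rps6: aagtcgggCCTCTTTTTCgtgacgcctccc
Rps12: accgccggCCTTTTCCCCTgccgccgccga
Rpl13a: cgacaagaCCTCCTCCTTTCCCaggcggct
Eef1a1: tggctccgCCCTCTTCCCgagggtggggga

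RefSeq start regions matched 68 of the 89 members. A run of at least 8 C or T that began with C lay between 20 bases before and 50 bases after the annotated start in 51 of them (75.0%), against 22.7% of all 27025 genes with such a sequence. The median length of the longest run was 10 bases among members and 5 among all genes. The presence of the letters is a description of the window and no measure of translation.

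Rpl3 and Rpl3l are the pair on which the paralog results turn. The first 60 coding bases of each are shown, with the 13 positions at which they differ in capitals, taken from the annotated transcripts of Rpl3 (chr15:80077791-80091868, minus strand, GRCm38) and Rpl3l (chr17:24727820-24736143, plus strand).
Rpl3: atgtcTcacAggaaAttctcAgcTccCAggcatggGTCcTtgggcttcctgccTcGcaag
Rpl3l: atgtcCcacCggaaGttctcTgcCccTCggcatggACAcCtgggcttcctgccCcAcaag

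Over 1202 aligned coding bases the pair was 74.8% identical, and the longest identical run was 22 bases, well under the 100-base reads. No 100-base window of the Rpl3l transcript occurred in another annotated transcript. For Rpl3, 79.4% of such windows also occurred elsewhere, all of its 7 close matches being pseudogenes, so a full read of one does not match the other, although some Rpl3 reads also match a pseudogene.

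The 250 bases before the Rpl3l start are shown because Rpl3l moved with the muscle genes. The sequence is RefSeq's, at chr17:24727576-24727825 (plus strand, GRCm38.p6), and capitals mark matches to CANNTG, the E-box that myogenic factors such as MyoD bind; the motif reads the same on both strands.
Rpl3l: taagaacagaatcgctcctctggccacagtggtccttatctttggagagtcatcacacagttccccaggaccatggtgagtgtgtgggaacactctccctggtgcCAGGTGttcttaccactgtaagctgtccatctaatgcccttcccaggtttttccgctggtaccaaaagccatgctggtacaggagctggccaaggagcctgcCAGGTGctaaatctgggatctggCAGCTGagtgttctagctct

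The window held 3 matches, of which 1 was the form CAGCTG. At least 3 matches were present in 4.41% of members with a start region and in 13.8% of all genes, and CAGCTG itself in 5.88% and 14.7%. These shares describe letters only, and binding was not measured.

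The 12 libraries held between 16802988 and 18077863 counts on genes, so depth differed little. The labelled tissue was checked against its markers. The 12 skeletal muscle fibre genes of the marker list, such as Ckm, Acta1 and Myh4, made up 9.8% to 13.3% of counts in the 4 No operation mice, 0.259% to 1.13% in SHAM and 0.374% to 1.66% in Laminectomy, and none of the 12 was at 0 in any mouse. The 8 fibroblast genes made up 0.723% to 2.5%, 6.17% to 7.78% and 6.19% to 7.34%, and the 8 macrophage and monocyte genes 0.0601% to 0.167%, 0.514% to 0.89% and 0.396% to 0.618%. Operated samples held far less muscle RNA and more fibroblast and macrophage RNA alongside every difference from No operation given below. Of the fibroblast genes 6 rose in each comparison, but Dcn fell, at log2 fold changes of -0.94 and -1.73. Of 7 proliferation genes 3 rose in SHAM and 6 in Laminectomy, where 25.7% and 24.2% of all genes rose, and of 5 adipocyte genes 3 and 5 fell, where 25.1% and 24.4% of all genes fell. Against the same shares, 3 of 6 tested lymphocyte genes rose in each comparison and 1 fell in SHAM. Of 5 erythroid genes 2 fell in SHAM, and of 7 cartilage and bone genes 1 rose in SHAM and 2 in Laminectomy. Of 5 neutrophil genes 1 rose in SHAM, and of 5 endothelial genes 1 fell in each comparison. The part of these cell types in the differences was not tested. In bulk tissue, a change in the number of cells of a type and a change in RNA per cell cannot be told apart.

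The RNA of the cytosolic ribosome took a larger share of the transcriptome after either operation. Counts of the 89 genes summed to 2.02%, 1.9%, 1.88% and 2.01% of all counts in the No operation mice. The sums were 3.02%, 3.91%, 2.76% and 3.3% in SHAM. In Laminectomy they were 3.15%, 2.85%, 3.16% and 3.63%. The lowest operated mouse lay above the highest unoperated one, whereas SHAM and Laminectomy overlapped throughout. Group means were 1.95% ± 0.0751, 3.25% ± 0.493 and 3.2% ± 0.321 (SD, n = 4 each).

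Both subunits took part. The 40S genes went from 0.774% ± 0.0315 of counts in No operation to 1.32% ± 0.216 in SHAM and 1.29% ± 0.139 in Laminectomy. The 60S and P stalk genes went from 1.12% ± 0.043 to 1.9% ± 0.274 and 1.87% ± 0.179. With the 12 muscle fibre genes taken out of the total, the unoperated share became 2.2% ± 0.0982 and the operated shares 3.28% ± 0.498 and 3.23% ± 0.324, and the 2 operated groups still did not overlap with No operation.

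**Figure D1:**
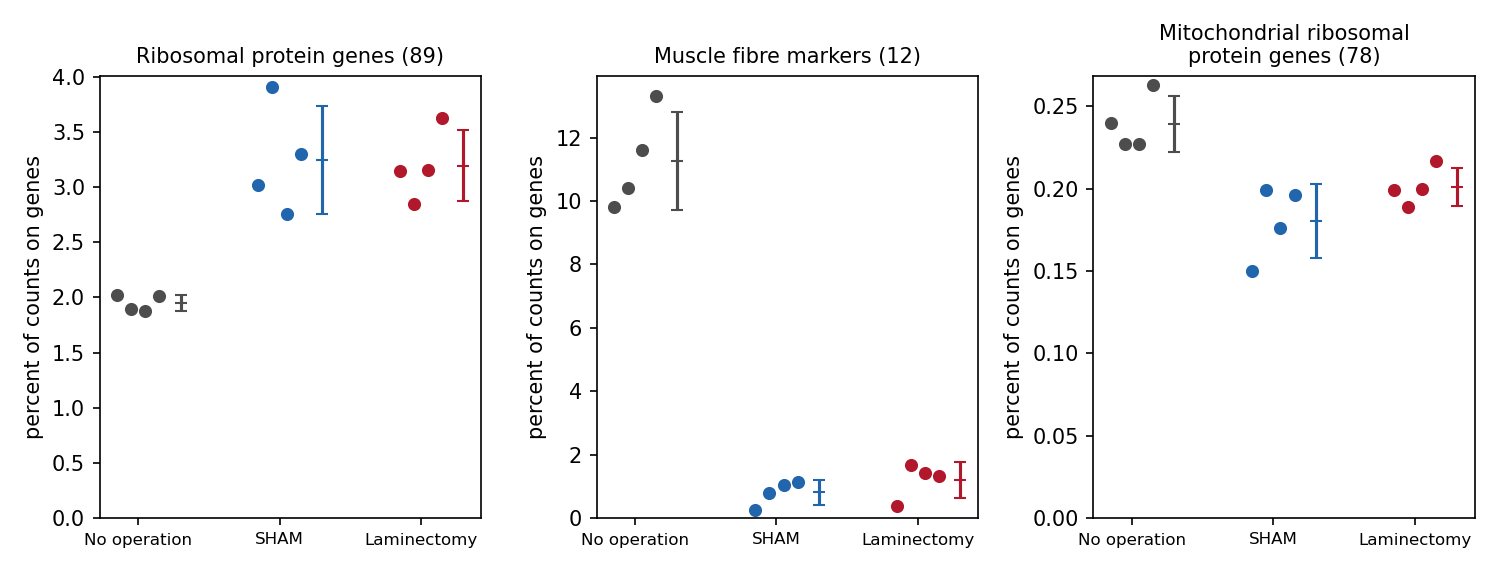
Percent of all counts on genes held by the 89 ribosomal protein genes, by 12 muscle fibre marker genes and by 78 mitochondrial ribosomal protein genes. Each point is 1 mouse and the bar beside the points is the mean with its SD (n = 4). The cytosolic ribosome's share lay between 1.88% and 2.02% without an operation and between 2.76% and 3.91% after one, while the muscle and mitochondrial ribosome shares moved the other way.

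Fitted gene by gene, the rise was broad and modest in size, with 1 large exception in the other direction. Levels below are in CPM, counts scaled to library size with TMM factors, and a gene is said to have risen or fallen where edgeR's quasi-likelihood test gave an adjusted p under 0.05 over all 14765 genes tested and the log2 fold change passed 0.5. Of the 89 members 86 were tested. In SHAM against No operation 51 members rose, where 25.7% of all genes rose, and only Rpl3l fell, where 25.1% of all genes fell. In Laminectomy against No operation 28 members rose beside 24.2% of all genes, and again Rpl3l alone fell beside 24.4%. As shares of the members tested, those that rose were 59.3% and 32.6%. Of the 77 subunit genes 48 rose in SHAM and 28 in Laminectomy. The other members that rose in SHAM were Rpl39l and the pseudogenes Rpl37rt and Rpl32l.

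The median log2 fold change of the tested members was 0.56 in SHAM and 0.41 in Laminectomy, where the median over all genes was -0.002 and 0.009. By adjusted p alone, with no limit on size, 69 and 55 members were higher, beside 31.0% and 29.6% of all genes. Only 5 and 1 members rose by more than 1 log2 unit, beside 15.6% and 14.6% of all genes. Group ranges gave much the same picture: all 4 SHAM mice lay above all 4 No operation mice for 62 members (26.7% of all genes), and all 4 Laminectomy mice for 58 (27.0%). In each comparison 1 member, Rpl3l, lay below without overlap, beside 27.8% and 29.0% of all genes.

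The count depends on the scaling. With library totals in place of TMM factors, 78 and 76 members rose and the medians became 0.82 and 0.74, while the median of all genes moved to 0.253 and 0.328. Relative to those medians, the members stood about as far out as under TMM. The 2 comparisons share their No operation mice and are not independent of each other.

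**Figure D2:**
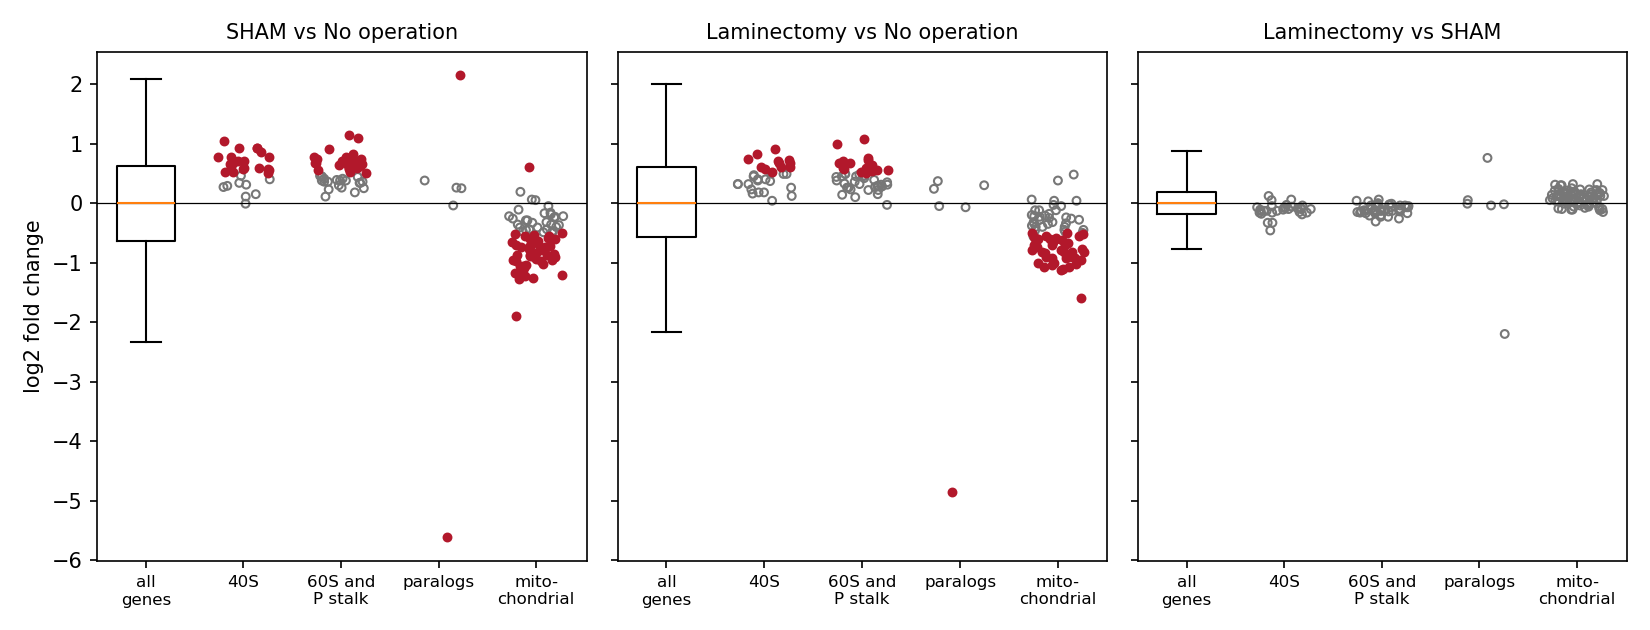
Log2 fold change of 40S genes, 60S and P stalk genes, paralogs and mitochondrial ribosomal protein genes in the 3 comparisons. Filled points passed both limits, open points did not, and the box shows all tested genes (median, quartiles, whiskers at the 5th and 95th percentiles). All subunit genes but 1 sit above 0 in each of the first 2 panels, mitochondrial ribosomal protein genes mostly below, and in the panel of Laminectomy against SHAM no point is filled.

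In the small subunit, 22 of 31 genes rose in SHAM and 12 in Laminectomy, beside 25.7% and 24.2% of all genes, none fell, beside 25.1% and 24.4%, and the median log2 fold changes were 0.59 and 0.47. Rps12, a protein of the subunit's beak, gave 191, 179, 189 and 189 CPM in No operation, 358, 514, 299 and 363 CPM in SHAM and 337, 292, 354 and 421 CPM in Laminectomy. All 8 operated mice lay above all 4 unoperated ones. Its log2 fold change was 1.04 ± 0.164 (SE; adjusted p = 0.00024) in SHAM and 0.91 ± 0.164 (adjusted p = 0.000649) in Laminectomy. Rps19, which is needed to mature the 40S subunit and is the gene most often mutated in Diamond-Blackfan anaemia, gave 195, 180, 191 and 206 CPM without an operation. It gave 338, 483, 293 and 350 CPM in SHAM and 334, 289, 329 and 412 CPM in Laminectomy. The groups again did not overlap with No operation, at log2 fold changes of 0.92 (adjusted p = 0.000422) and 0.82 (adjusted p = 0.00102). Rps16, a protein of the 40S head, rose by 0.92 and 0.74 log2 units. Rpsa, the laminin receptor precursor that doubles as a 40S protein, rose by 0.59 and 0.53 log2 units, with 0.47 in SHAM without SHAM mouse 2 and 0.46 in Laminectomy without Laminectomy mouse 1, both under the limit, and 0.5 in Laminectomy without No operation mouse 2, which also did not pass.

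Some 40S genes did not share the rise. Rps2, at the entrance of the mRNA channel, had the highest level per length of all subunit genes, with a mean of 1140 CPM per kb of exon, and its values overlapped in all groups: 1450, 1160, 1180 and 1450 CPM in No operation, 1170, 1470, 1160 and 1400 CPM in SHAM and 1490, 1240, 1260 and 1370 CPM in Laminectomy. The log2 fold changes of Rps2 were -0.01 and 0.04, each with an SE of 0.141. Rps6, whose protein is phosphorylated by the kinases S6K, was listed at only 18.1 to 23.8 CPM in No operation, 20.3 to 23.5 CPM in SHAM and 22.3 to 25.1 CPM in Laminectomy. Its log2 fold changes were 0.11 ± 0.1 and 0.23 ± 0.1 (adjusted p = 0.358 and 0.0695). Of the 100-base windows of the Rps6 transcript 83.6% also occurred in other annotated genes, all 11 close matches being pseudogenes, and the study's methods name featureCounts at its default settings, which leave out reads with several matches. Part of the deposited values are not whole, which those settings would not give, so how such reads were treated is in doubt and the low level of Rps6 may not be its RNA level.

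In the large subunit, 24 of 43 genes rose in SHAM and 15 in Laminectomy, beside the same 25.7% and 24.2% of all genes, none fell, and the medians were 0.58 and 0.45. Rpl41, which codes for the smallest ribosomal protein, had the largest rise of the subunit genes in SHAM. Its values were 166, 138, 146 and 161 CPM in No operation, 282, 504, 253 and 310 CPM in SHAM and 321, 267, 249 and 374 CPM in Laminectomy, without overlap with the unoperated mice. That gave log2 fold changes of 1.14 ± 0.211 (adjusted p = 0.00067) and 0.99 ± 0.21 (adjusted p = 0.00188). Rpl39, which lines the exit tunnel, gave 80.3, 75.8, 77.3 and 88.9 CPM, then 144, 183, 128 and 152 CPM and 131, 119, 118 and 150 CPM, and rose by 0.91 and 0.68 log2 units. Rpl36a rose by 0.78 and 0.71 log2 units.

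At the other end of the large subunit, Rpl4, a core protein with an arm in the exit tunnel, had log2 fold changes of 0.11 and 0.14 (SE 0.111 each), with overlapping groups. Rpl36 gave 84.1, 75.4, 86 and 98.1 CPM in No operation, 93.1, 129, 83 and 98.6 CPM in SHAM and 91.6, 79.7, 73.4 and 92 CPM in Laminectomy. Neither of the Rpl36 differences passed the test, at log2 fold changes of 0.23 and -0.03.

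Of the 3 P stalk genes 2 rose in SHAM and 1 in Laminectomy, where 59.3% and 32.6% of tested members and 25.7% and 24.2% of all genes rose. The P stalk recruits the elongation factors that hydrolyse GTP. Its base Rplp0 gave 1010, 866, 861 and 929 CPM without an operation, 1240, 1340, 1020 and 1190 CPM in SHAM and 1170, 1060, 1080 and 1170 CPM in Laminectomy. All operated mice lay above all unoperated ones for Rplp0, yet its log2 fold changes of 0.38 and 0.29 stayed under the size limit. Its partners Rplp1 and Rplp2 rose in SHAM by 0.67 and 0.52 log2 units, and Rplp1 also in Laminectomy by 0.54. Without SHAM mouse 2 the values of Rplp1 and Rplp2 in SHAM were 0.49 and 0.33 and neither passed. Rplp2 also did not pass without No operation mouse 2 (0.48) or 3 (0.49), nor Rplp1 in Laminectomy without No operation mouse 2 or Laminectomy mouse 4 (0.45 each).

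Rpl5 and Rpl11 form the 5S ribonucleoprotein, which binds Mdm2 when ribosome assembly fails. Rpl11 rose in SHAM by 0.64 (adjusted p = 0.000773) and had 0.44 in Laminectomy, and Rpl5 had 0.44 and 0.33, under the limit. Among 9 genes mutated in Diamond-Blackfan anaemia 6 rose in SHAM and 4 in Laminectomy, with medians of 0.64 and 0.49. Of 8 genes around the exit tunnel 5 rose in SHAM and 4 in Laminectomy. These groups are small, and their counts are to be read against the 59.3% and 32.6% of all tested members, and the 25.7% and 24.2% of all genes, that rose.

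Mice of 1 group differed in the level of the whole set and not only gene by gene. SHAM mouse 2 was the highest SHAM mouse for 71 of the 77 subunit genes, and SHAM mouse 3 the lowest for 76. Their median log2 differences from the other 3 SHAM mice were 0.3 and -0.34. In Laminectomy, mouse 4 was the highest for 61 genes and mouse 2 the lowest for 62. In No operation, mouse 2 was the lowest for 72 genes, at a median difference of -0.19. The subunit genes thus went up and down together within groups as well as between them. Without SHAM mouse 2, 39 members rose in SHAM against No operation.

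**Figure D3:**
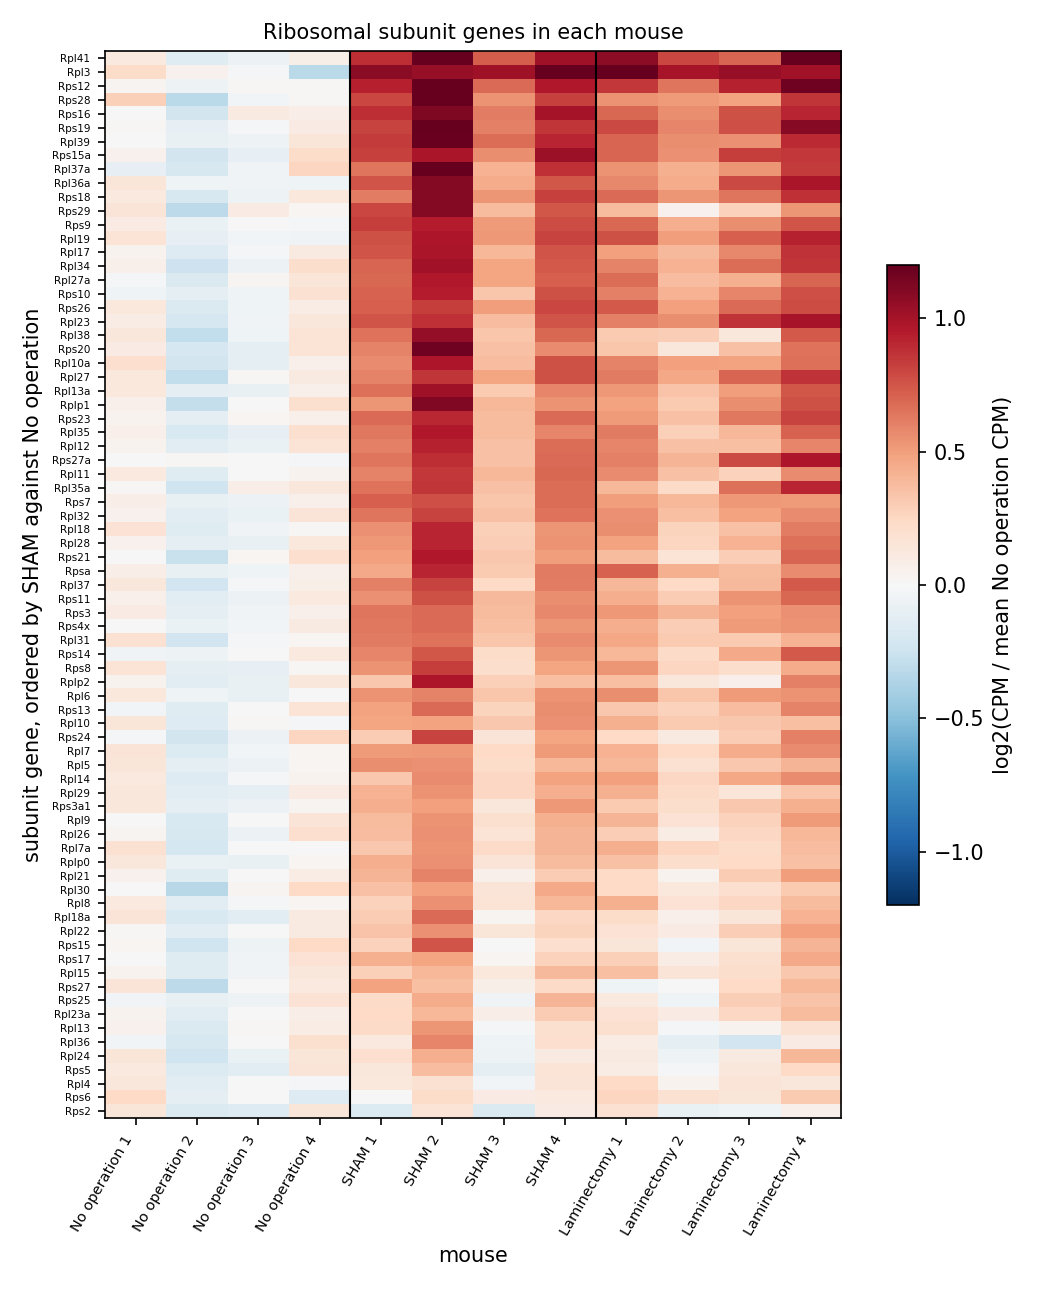
Each row is 1 of the 77 subunit genes, ordered by its log2 fold change in SHAM against No operation, and each column 1 mouse. Colour is the log2 of CPM over the mean of the 4 No operation mice, limited to 1.2 in either direction. Most rows are red in all 8 operated mice, deepest in SHAM mouse 2 and Laminectomy mouse 4, and the rows at the foot, Rps2, Rps6 and Rpl4, stay pale.

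The size of the difference was related little to simple properties of the 77 genes. Over genes, which are not independent, the log2 fold change in SHAM had a Pearson correlation of -0.04 with log2 exon length, -0.11 with the share of 100-base windows found in other genes and -0.17 with log2 mean CPM per kb. In Laminectomy the 3 values were 0.04, -0.04 and -0.12. The median gene shared 35.8% of its windows with other transcripts, 30 genes shared over 50%, and 4 shared none, so counts of many members may include reads that also match pseudogenes. By mean CPM per kb of merged exon, Rps2 was followed by Rpl23a (919), Rps3a1 (809), Rplp0 (794) and Rpl10 (765), and the lowest were Rps15a (24.6), whose merged exons span 5395 bases, and Rps6 (25).

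Rpl3l was the only member that fell, and it fell nearly out of the tissue. The 4 No operation mice gave 346, 313, 369 and 480 CPM. The SHAM mice gave 5.73, 7.7, 10.2 and 7.05 CPM, and the Laminectomy mice 1.27, 17, 18.2 and 15.6 CPM. No operated mouse came near an unoperated one, and Laminectomy mouse 1, with 24 counts, was the lowest of all. The log2 fold change was -5.62 ± 0.632 in SHAM (adjusted p = 2.64e-05) and -4.85 ± 0.607 in Laminectomy (adjusted p = 6.39e-05), so that 2.03% and 3.46% of the unoperated level was left.

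Rpl3, the form used in most tissues, went the other way. It gave 430, 381, 364 and 295 CPM in No operation, 779, 760, 743 and 842 CPM in SHAM and 885, 732, 760 and 739 CPM in Laminectomy. Its log2 fold changes of 1.09 ± 0.131 (adjusted p = 3.98e-05) and 1.08 ± 0.131 (adjusted p = 5.26e-05) were the highest of any 60S gene but Rpl41 in SHAM and the highest of all members in Laminectomy. The unoperated mouse with the most Rpl3l, mouse 4, had the least Rpl3 and the highest share of muscle fibre RNA.

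Per kb of exon, Rpl3l made up 40.5%, 41%, 46.1% and 57.9% of the pair in the No operation mice, 0.618%, 0.849%, 1.14% and 0.703% in SHAM and 0.121%, 1.93%, 1.99% and 1.75% in Laminectomy. Since 79.4% of Rpl3's windows and none of Rpl3l's occurred elsewhere, and the treatment of reads with several matches is in doubt, Rpl3 may be undercounted and these shares too high. The log2 ratio of Rpl3l to Rpl3, which does not depend on library scaling, was 0.03 ± 0.473 (SD, n = 4) in No operation, -6.68 ± 0.384 in SHAM and -6.42 ± 1.94 in Laminectomy. The differences of -6.71 and -6.45 each had p = 0.0286 in a two-sided exact permutation test over mice, the smallest that 4 against 4 allow, or 0.0429 adjusted over the 3 comparisons. Without Laminectomy mouse 1 the Laminectomy difference was -5.48. Laminectomy and SHAM differed by 0.26 (exact permutation p = 0.886), a value that turned on Laminectomy mouse 1. Without that mouse the difference was 1.23 (exact permutation p = 0.0571, the smallest that 3 against 4 allow), and without Laminectomy mouse 2, 3 or 4 it was -0.07, -0.09 and -0.02.

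**Figure D4:**
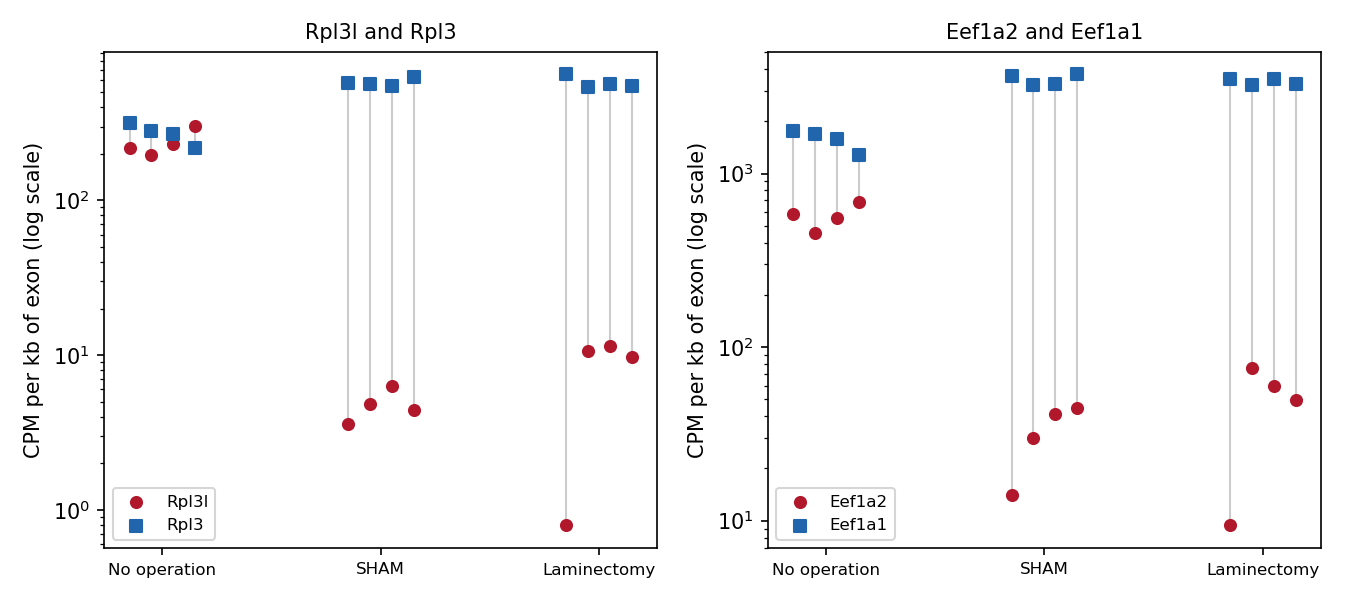
CPM per kb of exon, on a log axis, for Rpl3l with Rpl3 and for Eef1a2 with Eef1a1. Each pair of points joined by a line is 1 mouse. In the No operation mice Rpl3l lies at 196 to 301 and Rpl3 at 218 to 318, and in all operated mice the muscle form of either pair lies far below its partner.

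The elongation factor pair behaved in the same manner. Eef1a2, the form of muscle and neurons that brings aminoacyl-tRNA to the ribosome, gave 1210, 946, 1150 and 1430 CPM in No operation, 29.2, 62.6, 86 and 93 CPM in SHAM and 19.6, 158, 125 and 103 CPM in Laminectomy. Its log2 fold changes were -4.13 (adjusted p = 9.39e-05) and -3.55 (adjusted p = 0.000261). Eef1a1, the common form, gave 3160, 3050, 2860 and 2300 CPM, then 6540, 5800, 5920 and 6700 CPM and 6260, 5840, 6240 and 5850 CPM, and rose by 1.13 and 1.09. Laminectomy mouse 1 had the least of both muscle forms among all 12 mice, and the second lowest share of muscle fibre counts, 0.374%.

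The genes outside the set whose log2 CPM followed Rpl3l most closely over the 12 mice were Sec14l5, Asb10, Mylk2, Ndrg2 and Cystm1, with Pearson correlations of 0.994 to 0.996. Mylk2, the myosin light chain kinase of skeletal muscle, averaged 1410 CPM in No operation, 39.1 CPM in SHAM and 60.8 CPM in Laminectomy. Those closest to the summed members were LOC100044627 and LOC100862455 (0.983 each, and with identical values in every mouse), Alyref2 (0.979), Dctn5 (0.975) and LOC105244208 (0.97). These likenesses are dominated by the step between unoperated and operated mice.

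In the other ribosomal protein pairs no paralog fell while its partner rose. Rpl22l1, a relative of Rpl22, had log2 fold changes of 0.25 and 0.3 beside 0.34 and 0.27 for Rpl22, and none passed. The log2 ratio of the pair was -0.94 ± 0.158 in No operation, -1.02 ± 0.151 in SHAM and -0.9 ± 0.0274 in Laminectomy. Rpl7l1, a homologue of Rpl7 that acts in pre-ribosomes, kept a ratio of -2.89 ± 0.0952, -2.95 ± 0.141 and -2.93 ± 0.199. Rps27l, a target of p53, had log2 fold changes of -0.04 and -0.07 with overlapping groups. The log2 ratio of Rps27l to Rps27 was -0.99 ± 0.152, -1.31 ± 0.218 and -1.21 ± 0.248, also with overlap. Rpl36al, a close copy of Rpl36a, had 0.26 and 0.24 and did not pass, where Rpl36a rose. The log2 ratio of that pair went from -0.11 ± 0.167 to -0.61 ± 0.0993 and -0.56 ± 0.237. All SHAM ratios of this pair lay below all No operation ratios, and the Laminectomy ratios overlapped with both.

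Rpl39l, a form best known from the testis, was scarce in all mice. It gave 0.896, 0.756, 1.27 and 0.14 CPM in No operation, 4.83, 4.76, 2.17 and 2.03 CPM in SHAM and 0.476, 0.206, 1.09 and 1.2 CPM in Laminectomy. All SHAM mice lay above all the others, at 38 to 89 counts against 2 to 19 and 4 to 23. Rpl39l rose in SHAM by 2.16 ± 0.617 log2 units (adjusted p = 0.00986), and in Laminectomy its log2 fold change was -0.05 ± 0.633. The log2 ratio of Rpl39l to Rpl39 was -6.76 ± 1.16 in No operation, -5.51 ± 0.572 in SHAM and -7.45 ± 0.894 in Laminectomy. Only the SHAM and Laminectomy ratios did not overlap. The longest run of bases that its coding sequence shares with Rpl39 is 38, and none of its 100-base windows occurred in another transcript. Rpl37rt, a retrotransposed copy of Rpl37, also rose in SHAM, by 1.17 log2 units from 5 to 13 counts to 21 to 48 counts, and 27.3% of its windows occurred in other genes. Without No operation mouse 2 or SHAM mouse 2 Rpl37rt had 0.92 and 0.85 and did not pass.

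Fau and Rack1, ribosomal proteins that the name rule misses, were in the same range. Fau, whose product is split into a ubiquitin-like protein and eS30, rose by 0.91 and 0.62. Rack1, the 40S scaffold for signalling kinases, rose in SHAM by 0.54, or 0.49 and under the limit without No operation mouse 2, and had 0.43 in Laminectomy. The members left untested for low counts were Rpl31-ps12 with 0 to 9 counts a mouse, Rpl34-ps1 with 0 to 10 and Rps27rt with 0 to 8.

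With and without excision of the lamina, operated tissue was not told apart by these genes. In Laminectomy against SHAM edgeR called none of the 86 members and none of all genes (0.0%), and at an unadjusted p under 0.05 it had 2 members, Rpl39l and Rps29, or 2.33%, beside 16.0% of all genes. DESeq2 called 1 member, Rpl39l, which was lower in Laminectomy, beside 337 of all genes that were higher and 359 that were lower. The median log2 fold change was -0.1, where that of all genes was 0.004, and 77 of 86 members were on the lower side. That median was -0.01 without SHAM mouse 2, -0.06 without Laminectomy mouse 2, -0.17 without Laminectomy mouse 4 and -0.18 without SHAM mouse 3, and the medians of single mice varied within groups with an SD of 0.151. The tilt was thus within the spread between mice. Marker lists also stood apart in this comparison, although none of their genes passed: all 8 macrophage and monocyte genes (median log2 fold change -0.8) and all 5 adipocyte genes (-1.66) were on the lower side. All 5 erythroid genes (1.95), 7 cartilage and bone genes (3.45), 12 muscle fibre genes (0.58) and 7 proliferation genes (0.5) were on the higher side. Their summed shares in SHAM and Laminectomy ran from 0.514% to 0.89% and 0.396% to 0.618% for macrophage, 0.0632% to 0.121% and 0.121% to 0.725% for erythroid, and 0.000846% to 0.0149% and 0.0803% to 0.269% for cartilage and bone genes. Their part in the members' values was not tested.

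The lowest values belonged to Rpl39l at -2.2 (SE 0.61, adjusted p = 0.141), Rps29 at -0.46, Rpl37rt at -0.34 and Rps28 and Rps20 at -0.33 each. Without SHAM mouse 2, Rpl37rt had -0.02 and Rps28 and Rps20 -0.13 each, and without Laminectomy mouse 4 Rpl37rt had -0.57. The highest were Rpl3l at 0.76 (SE 0.538, adjusted p = 0.511), Rps6 at 0.12, Rps19bp1 at 0.1, and Rpl23 and Rps27a at 0.06 each. Rps29, a zinc-binding protein of the 40S head, gave 109, 134, 81.2 and 105 CPM in SHAM and 81.3, 64.9, 75.8 and 90.3 CPM in Laminectomy, so the groups overlapped. Rpl39l was the only member whose 2 operated groups did not overlap, beside 5.07% of all genes that were lower without overlap, and no member was higher without overlap, beside 5.05%.

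Genes of the machinery around the ribosome were found on both sides. Of 33 translation factor genes 5 rose and 4 fell in SHAM, and 4 rose and 3 fell in Laminectomy, with medians of -0.07 and -0.01, where 25.7% of all genes rose and 25.1% fell in SHAM and 24.2% and 24.4% in Laminectomy. Eef1b2, which reloads eEF1A with GTP, rose by 0.72 and 0.77, and Eef2, the translocase, had 0.01 and -0.01. Of 50 ribosome biogenesis genes 6 rose and 9 fell in SHAM, and 8 rose and 5 fell in Laminectomy, beside the same shares of all genes. Their median log2 fold changes were -0.1 and 0.05. Npm1, the nucleolar chaperone nucleophosmin, rose by 0.91 and 1.11, Fbl, the methyltransferase fibrillarin, by 0.56 and 0.66, and Myc, which drives many of these genes, by 0.95 and 1.04. Nop58, Nhp2 and Imp4 also rose in both comparisons, and Ncl and Gar1 in Laminectomy alone. Polr1a, the largest subunit of RNA polymerase I, fell, at log2 fold changes of -0.91 and -0.66. Wdr12 and Rrp12 also fell in both comparisons. Rrn3, Gnl2, Gnl3l, Rrp9, Bysl and Nob1 fell in SHAM alone, and Imp3 and Sbds in Laminectomy alone.

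Of 14 genes that control translation through mTOR none rose in either comparison, where 25.7% and 24.2% of all genes rose. In each comparison 6 fell, beside 25.1% and 24.4% of all genes. The same 6 fell in both: Mtor, at log2 fold changes of -0.6 and -0.51, Tsc1, Tsc2, Eif4ebp2, Eef2k and Akt1s1. Rps6kb1, which encodes a kinase of Rps6, had -0.01 and 0.07. RNA levels do not report the activity of this pathway, which works by phosphorylation.

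The ribosome of the mitochondrion, which translates the organelle's own mRNAs and is abundant in oxidative tissue such as muscle, moved against that of the cytosol. Among 78 of its protein genes 47 fell and 1, Mrpl52, rose in SHAM, where 25.1% of all genes fell and 25.7% rose. In Laminectomy 43 fell and none rose, beside 24.4% and 24.2% of all genes. The medians were -0.62 and -0.56. Their summed counts went from 0.239% ± 0.0171 of all counts in No operation to 0.18% ± 0.0227 in SHAM and 0.201% ± 0.0115 in Laminectomy. The part of the muscle fibre RNA, which fell alongside, was not tested.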

How the data were processed

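RNA of 12 mice, 4 in each of 3 groups, was sequenced by the authors from stranded polyA libraries as paired 100-base reads. Per the labels and the study's methods, reads were aligned with STAR 2.6.1b to GRCm38/mm10 and counted per gene with featureCounts 2.0.1 at default settings, which give whole counts without multi-mapped reads. The deposited values are nevertheless treated as estimated counts, since 10.22% (15.45% among members) are not whole, which conflicts with the stated settings. The study's methods state 3 mice a group where the table holds 4, so all 4 were used. Depth was 16802988 to 18077863 counts a mouse, and intervals and SEs cover the spread between mice, and nothing in the labels ties same-numbered mice together.

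Counts were rounded and fitted with edgeR 4.0.16 (TMM, filterByExpr, quasi-likelihood test, R 4.3.3) over all 12 mice, and Benjamini-Hochberg adjustment ran over 14765 genes. Calls needed an adjusted p under 0.05 and a log2 fold change past 0.5 in either direction, the study's limits. The common dispersion was 0.0799. Ratios used a prior count of 2 and exact permutation tests (SciPy 1.17.1). Exon lengths and coordinates came from the GENCODE annotation of GRCm38, shared windows and close matches (at least 95% identity over 100 bases) from BLAST+ 2.17.0+ and exact matching, and start regions from RefSeq. Scripts were tested on simulated data. DESeq2 1.42.0 and other scalings, filters and left-out mice were alternatives.

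Named genes were the paralog pairs, the P stalk, Rpsa, Rpl5, Rpl11, Rps6 and Rps19, the 5 highest and 5 lowest fold changes of each comparison, the 5 highest levels per length, Fau, Rack1, Eef1a1 and Eef1a2, and the 5 genes most like Rpl3l and the summed members. Other genes named from the lists, and Rps16 and Rps15a for their place, were picked after their values were seen. Members and lists were chosen with earlier results of these data known.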

Additional observations from a re-analysis of the deposited data

Results flagged for a closer look

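Within groups of 4 mice, 123 sets of values were examined for a mouse standing apart by Dixon's criterion, which chance alone meets in about 1 group in 20, and 8 were met. Rpl3l in Laminectomy mouse 1 was 1.27 CPM, against 15.6 to 18.2 CPM in the other 3, and the log2 ratio of Rpl3l to Rpl3 in that mouse was -9.32, against -5.56 to -5.37. Rpl7l1 in the same mouse was 93 CPM against 76.5 to 78.3 CPM. Laminectomy mouse 4 had 101 CPM of Rps28 against 77.7 to 80.9 CPM. SHAM mouse 2 had 369 CPM of Rplp1 against 225 to 249 CPM, and 307 CPM of Rplp2 against 191 to 202 CPM. SHAM mouse 3 had 546 CPM of Rpl7 against 661 to 665 CPM. No operation mouse 1 had 79.6 CPM of Rpl36a against 69.5 to 70.1 CPM.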

How the results depend on the processing

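Rpl3l fell in both comparisons with No operation under all alternatives run, by log2 fold changes of -5.78 to -5.48 and -5.06 to -4.47 with 1 mouse left out. Members called in SHAM numbered 40 to 56 with 1 mouse left out and in Laminectomy 22 to 41. With library totals they were 79 (median 0.82) and 77 (median 0.74). Without a limit on fold change 56 were called in Laminectomy, and with a limit of 1 log2 unit 6 and 2. DESeq2 called 1 member, Rpl39l, in Laminectomy against SHAM. The unoperated share of counts was 2.2% without the muscle list in the total. The Rpl3l to Rpl3 ratio kept its difference with 1 mouse left out (-6.88 to -6.49 and -6.8 to -5.48), but 3 against 4 cannot give p under 0.0571. Same-numbered mice were not taken as pairs: correlations of their deviations ran from -0.228 to 0.352 over the 3 comparisons, although in Laminectomy against No operation all 4 were positive (0.0686 to 0.352). With the replicate block 52 and 29 members were called, and the ratio differences were -6.71 and -6.45, where 4 pairs cannot give p under 0.125. In Laminectomy against SHAM, with 1 mouse left out, the ratio ran from -0.09 to 1.23, the highest without Laminectomy mouse 1, and the median of the members from -0.18 to -0.01.

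Differences that never passed the test changed sign in some fits. With library totals, Rps27l had 0.23 and 0.25, Rps2 0.25 in SHAM, and Rpl39l 0.28 and Rpl36 0.29 in Laminectomy. Rpl39l in Laminectomy had 0.05 with the replicate block. With 1 mouse left out, Rps27l ran from -0.14 to 0.09 in SHAM and -0.18 to 0.06 in Laminectomy, Rps2 from -0.07 to 0.04 and -0.02 to 0.1, Rpl39l from -0.38 to 0.3 and Rpl36 from -0.09 to 0.05 in Laminectomy, and in Laminectomy against SHAM Rpl23 ran from -0.03 to 0.13 and Rps27a from -0.04 to 0.15. Over the named genes, 12 fits, each with 1 mouse left out, lost a call and 39 gained one, 32 of them with library totals. Depth was ample for the subunit genes and thin for Rpl39l and Rpl37rt.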
